A study of Mus musculus with 6 samples.

Results

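Potassium channel genes were taken as the protein-coding mouse genes whose symbol starts with Kcn, and 94 such genes stood among the 52550 rows of the deposited table. The RNA came from GFP-positive cells sorted from livers of CD-1 embryos with the genotype Sox9-GFP (green fluorescent protein under control of Sox9, a transcription factor gene of the bile duct lineage). Both stages, E16.5 and E18.5 (embryonic days 16 and 18 in the sample labels), had 3 libraries each, named A, B and C, and neither was treated. Each library was 1 pool of 15 livers depleted of hematopoietic cells before sorting, so the spread between libraries is a spread between pools and not between embryos. Values are TPM (transcript abundance scaled for gene length and library total), which allow levels of different genes to be compared.

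Potassium channels let K+ leave the cell along its gradient and so set the negative membrane potential. In a secretory epithelium such as the bile duct, this potential drives chloride and bicarbonate out through the apical membrane, and water follows. The family falls into voltage-gated channels, channels opened by intracellular calcium or sodium, inward rectifiers and 2-pore-domain (background or leak) channels, and several accessory subunits change how the pore-forming subunits open.

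The summed TPM of the 94 genes, as deposited, was similar at both stages, but the genes that made it up were not the same. The sum was 321, 250 and 328 TPM in pools A, B and C of E16.5 and 252, 312 and 246 in those of E18.5, so the ranges of the stages overlapped. These sums were not rescaled between libraries. Median-of-ratios scaling, used below, divides TPM by 0.935, 0.893 and 0.765 in pools A, B and C of E16.5. In those of E18.5 it divides by 1.16, 1.29 and 1.13. It would raise the E16.5 sums and lower the E18.5 sums, so their similarity depends on the scale. At E16.5 the 3 genes with the highest means were Kcnj5, Kcnk6 and Kcna3, which together held 48.6%, 32.7% and 65.6% of the family's TPM in pools A, B and C. In pool B Kcnk16 (26.6 TPM) lay above Kcnk6 (24.9), and Kcnk5 (21.2) above Kcna3 (20.4). At E18.5 the same 3 genes held 1.95%, 8.41% and 4.20%, and Kcnk5, Kcnt2, Kcnh7 and Kcnk1 had become the most abundant. The other 91 genes summed to more in every E18.5 library than in any E16.5 library (149 ± 31.3 against 256 ± 26.0 TPM, SD, n = 3 each). This grouping of genes was made after their values had been seen, and no test was applied to the sums.

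**Figure D1:**
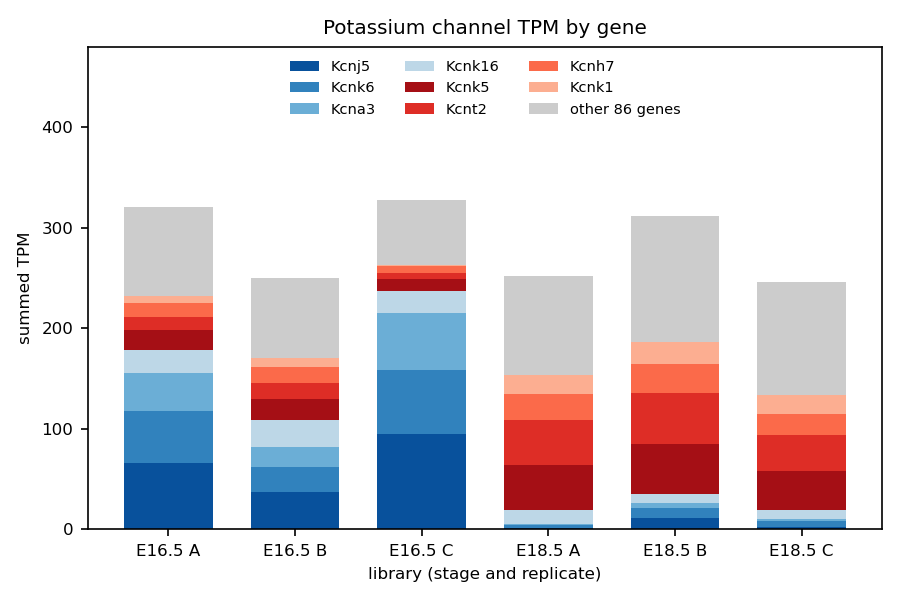
Stacked bars give the TPM of 8 potassium channel genes and of the other 86 genes together, for each of the 6 libraries (x axis: stage and pool, y axis: summed TPM from 0). Kcnj5, Kcnk6 and Kcna3 (dark and mid blue) fill 32.7% to 65.6% of the E16.5 bars and 1.95% to 8.41% of the E18.5 bars.

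Most of the family was low in these libraries. Of the 94 genes, 33 reached a mean of 1 TPM over the 6 libraries, and 21 were at 1 TPM or more in every E16.5 library and 25 in every E18.5 library. The 61 genes under a mean of 1 TPM had a median of 0.323 TPM, and their highest single value was 2.13 TPM. No gene was listed at 0 in all 6 libraries, and 75 were above 0 in each of them. Whole reads could be recovered for 80 of the genes, of which 54 had at least 3 reads in all 6 libraries and 2 had fewer than 3 reads in every one. A count of 3 reads was worth 0.0206 to 0.582 TPM, set by gene length and depth. Depth ranged from 23193537 to 26206374 recovered reads at E16.5 and from 13093937 to 22643868 at E18.5, so every E18.5 library was shallower and its low values are less precise. The markers detected were not those of cholangiocytes alone. The 11 cholangiocyte genes summed to between 960 and 2899 TPM in the E16.5 pools and between 8806 and 14848 in those of E18.5, whereas the 12 hepatoblast genes summed to between 161532 and 202790 TPM and between 37246 and 87201 TPM. In RNA from mixed cells such as these, fewer cells of a type and less RNA per cell cannot be told apart.

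The stages were compared with limma on log2(TPM + 1), with Benjamini-Hochberg adjustment over the 22452 genes whose mean was 1 TPM or more, and a gene was called at an adjusted p under 0.05. This scale understates the change of low genes, and fold changes are given with their standard error (SE). Of the 33 potassium channel genes tested, 6 were called higher and 5 lower at E18.5, while 22 did not pass. Over all genes tested, 26.0% were called higher and 5.22% lower (31.2% in either direction), and neither count is read as particular to the family. The TPM of all genes tended upward, with a median log2 fold change of 0.42 over all genes tested and 0.60 over the 33. Median-of-ratios scaling between libraries removed the general shift (median 0.01 over all genes and 0.19 over the 33) and left 3 genes called higher, Kcnk5, Kcnt2 and Kcnj8, and the same 5 called lower, against 6.44% and 10.5% of all genes (16.9% in either direction). With limma voom on recovered reads 6 were called higher, Kcnh7 and Kcnk1 not among them, and 8 lower of 32 tested, against 8.74% and 11.6% of all genes (20.4% in either direction). Of all calls, 83.3% were rises with the deposited TPM but 38.1% with median-of-ratios scaling and 42.9% with voom. Without pool A of E18.5, 1 potassium channel gene (Kcnj8) stayed called higher and 4 lower, and without pool B of E18.5 these numbers were 3 and 4. With 3 libraries against 3, the smallest 2-sided p of an exact permutation test is 0.1, which each of the 11 genes called reached. For 11 of the 33 genes all E18.5 libraries lay above all E16.5 libraries, and for 8 below, against 45.0% and 8.30% of all genes tested.

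**Figure D2:**
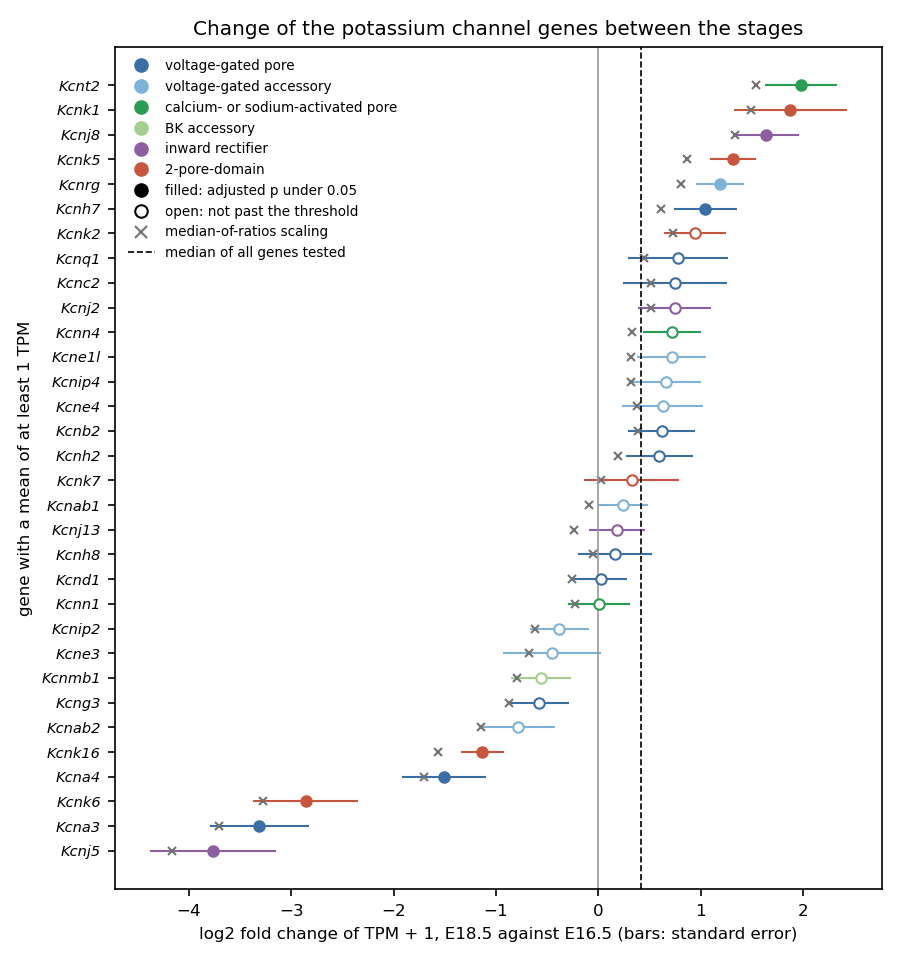
Each circle is the log2 fold change (E18.5 against E16.5) of 1 of 32 of the 33 potassium channel genes tested, with its standard error as a bar and its channel class as the colour. Filled circles passed an adjusted p of 0.05, crosses give the same gene after median-of-ratios scaling, and the dashed line is the median of 0.42 over all genes tested; the 5 filled circles on the left reach down to -3.77.

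Among the 40 pore-forming genes of voltage-gated channels, 11 were tested, and Kcna3 and Kcna4 fell while Kcnh7 rose. Kcna3 encodes Kv1.3, a channel known from T lymphocytes and platelets, and lies at chr3:107036169-107038070 on the forward strand (GRCm38, as for all coordinates here). It had 38.1, 20.4 and 56.8 TPM in pools A, B and C of E16.5 and 1.31, 5.66 and 2.20 in those of E18.5. Every E18.5 library lay below every E16.5 library, and the log2 fold change was -3.31 ± 0.48 (SE, limma adjusted p = 0.00976). Kcna4, which encodes the rapidly inactivating channel Kv1.4, was far less abundant. Its values were 2.82, 1.06 and 4.07 TPM in the E16.5 pools and 0.0302, 0.162 and 0.459 in those of E18.5, the last 3 from 1, 4 and 9 reads. Its log2 fold change was -1.51 ± 0.41 (SE, limma adjusted p = 0.0328), and the call was lost when any 1 of pools A or C of E16.5 or A or B of E18.5 was left out, and without a filter (adjusted p = 0.0580). The size of the change depended on the scale, with -3.18 at a pseudocount of 0.1 and -4.49 with voom.

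Kcnh7 belongs to the ether-a-go-go related channels, which are best known from excitable cells, and it was the most abundant voltage-gated gene at E18.5. Its gene lies at chr2:62693414-63184287, reverse strand, with 4.57% of its exon sequence shared with Gca on the opposite strand. It had 14.0, 16.3 and 6.90 TPM in pools A, B and C of E16.5 and 26.2, 29.1 and 21.0 in those of E18.5, without overlap between the stages. The log2 fold change of 1.04 ± 0.30 (SE, limma adjusted p = 0.0398) was 0.61 with median-of-ratios scaling (adjusted p = 0.144), and the call held in 5 of 13 alternatives (adjusted p 0.0208 to 0.144). Its relative Kcnh2, the HERG channel gene of the heart, had between 3.70 and 8.79 TPM in the E16.5 pools and between 7.67 and 12.8 TPM in those of E18.5. These ranges overlapped, and the log2 fold change of 0.60 (SE 0.33) did not pass (limma adjusted p = 0.193). Kcnq1, whose product carries the cAMP-activated basolateral K+ current of chloride-secreting epithelia together with KCNE subunits, had 5.73, 3.82 and 0.766 TPM in the E16.5 pools and 5.11, 4.83 and 7.16 in those of E18.5. The low value of pool C of E16.5 stood apart from the other libraries, and the difference did not pass (log2 fold change 0.78 ± 0.49, SE, limma adjusted p = 0.242). Kcnd1, an A-type channel, had 1.44 ± 0.191 TPM at the earlier and 1.48 ± 0.151 TPM at the later stage (SD, n = 3 each). The other 29 voltage-gated pore genes had means under 1 TPM.

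Of the 13 accessory genes of voltage-gated channels, 8 were tested, and Kcnrg was called. Kcnrg encodes a soluble protein that hinders the assembly of voltage-gated channels and is no channel itself. It had 3.07, 4.07 and 2.40 TPM in pools A, B and C of E16.5 and 8.25, 7.40 and 9.71 in those of E18.5. Each E18.5 library exceeded each E16.5 library, with a log2 fold change of 1.19 ± 0.23 (SE, limma adjusted p = 0.0150), and the call was lost with median-of-ratios scaling (0.80, adjusted p = 0.0510; 0.0155 to 0.0591 among the alternatives). None of the KCNE subunits, small membrane proteins that change the gating of KCNQ1 and other pores, was called. Kcne1l was the most abundant, with 5.44, 6.90 and 2.68 TPM in the E16.5 pools and 8.24, 11.2 and 6.38 in those of E18.5, and did not pass (log2 fold change 0.72, limma adjusted p = 0.137). Kcne3, the partner of KCNQ1 in secretory epithelia, had 2.69, 2.16 and 0.423 TPM in the E16.5 pools and 0.329, 1.87 and 0.692 in those of E18.5. The stages overlapped, and the log2 fold change of -0.45 did not pass (limma adjusted p = 0.480). Kcne2 was listed at 0 in pools A and C of E16.5 and in pool C of E18.5 and reached at most 0.443 TPM, from 4 reads. Kcnab2, a cytoplasmic beta subunit, had 4.22, 3.61 and 8.07 TPM in the E16.5 pools and 1.60, 3.93 and 2.34 in those of E18.5, which overlapped (log2 fold change -0.78, limma adjusted p = 0.131).

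Channels opened by intracellular ions comprised 8 pore genes and 4 genes of accessory subunits of the BK channel. Kcnt2, a channel opened by intracellular sodium and chloride, had the highest mean after Kcnk5 at E18.5. It spans chr1:140246158-140612067 on the forward strand (ENSMUSG00000052726.15). It had 12.5, 15.5 and 5.31 TPM in pools A, B and C of E16.5 and 44.1, 50.2 and 36.0 in those of E18.5. The lowest E18.5 library lay above the highest E16.5 library, and the log2 fold change was 1.98 ± 0.35 (SE, limma adjusted p = 0.0133), or 1.54 with median-of-ratios scaling. Its sodium-activated relative Kcnt1 stayed under a mean of 1 TPM. Kcnn4, the intermediate-conductance calcium-activated channel of secretory epithelia and red cells, had 4.70, 4.71 and 2.72 TPM in the E16.5 pools and 5.77, 9.79 and 6.35 in those of E18.5. These values did not overlap, but the log2 fold change of 0.72 (SE 0.28) did not pass (limma adjusted p = 0.0887). Its order of libraries was that of the summed erythroid list (B, A, C at E16.5 and B, C, A at E18.5). Pools A and B of E16.5 were nearly equal for Kcnn4, with 206 and 188 reads. Of the 33 genes tested 2 had this order, Kcnn4 and Kcnk1, against 4.27% of all genes tested. The 8 erythroid genes summed to between 244 and 315 TPM at the earlier and between 112 and 564 TPM at the later stage. Of them 1 was called lower (Epor), 0 higher, and none was at 0 in every library. The part of red cell RNA in Kcnn4 was not tested. Among the small-conductance channels, Kcnn1 had 1.07 ± 0.459 TPM at the earlier and 1.04 ± 0.0633 TPM at the later stage (SD, n = 3 each), with a log2 fold change of 0.00 whose sign turned with the scaling (-0.23). Kcnn2 had 0.382, 0.315 and 0.497 TPM in the E16.5 pools and 0.699, 0.615 and 1.01 in those of E18.5, too low for the test. Kcnma1, the pore gene of the BK channel, also missed the filter with 0.426, 0.446 and 0.162 TPM in the E16.5 pools and 0.965, 1.82 and 1.84 in those of E18.5, from 22 to 62 and 112 to 158 reads. Both Kcnn2 and Kcnma1 were higher in every E18.5 library than in any E16.5 library (exact permutation p = 0.1, the smallest possible).

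Inward rectifiers, which pass K+ inward more easily than outward, were 15 genes, of which 4 were tested; Kcnj5 fell and Kcnj8 rose. Kcnj5 encodes Kir3.4, a subunit of the channel opened by G protein beta-gamma subunits in the atrium of the heart. Kcnj5 (ENSMUSG00000032034.6) lies at chr9:32314707-32344350 on the reverse strand. At E16.5 it was the most abundant potassium channel gene, with 66.3, 36.6 and 95.0 TPM in pools A, B and C, higher on average than 91.7% of the 21819 protein-coding genes listed. At E18.5 it had 1.53, 10.9 and 2.21 TPM, higher than 47.0% of them. The stages were far apart, with a log2 fold change of -3.77 ± 0.61 (SE, limma adjusted p = 0.0112). Kcnj1, the kidney channel gene ROMK, lies 28.1 kb from Kcnj5 on the opposite strand of chromosome 9, and it had at most 0.455 TPM at E16.5. Its E18.5 values were 0.0439, 1.06 and 0 TPM, so pool B of E18.5 stood apart with 18 reads.

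Kcnj8 encodes Kir6.1, which forms the ATP-sensitive channel of vascular smooth muscle and pericytes together with the sulfonylurea receptor SUR2, the product of Abcc9. It had 1.10, 0.302 and 1.08 TPM in the E16.5 pools and 3.27, 5.14 and 5.51 in those of E18.5. All E18.5 libraries were higher, with a log2 fold change of 1.64 ± 0.32 (SE, limma adjusted p = 0.0151), and only the fit without pool B of E18.5 lost the call among the 12 alternatives. Abcc9 also rose, from 5.11 ± 2.67 to 16.7 ± 5.35 TPM (SD, n = 3 each; log2 fold change 1.59, limma adjusted p = 0.0252), a call that median-of-ratios scaling removed (adjusted p = 0.0932). Beside them, the 8 genes of the mesenchyme and smooth muscle list summed to between 87.4 and 206 TPM in the E16.5 pools and between 199 and 573 in those of E18.5; 1 of its 7 tested genes was called higher, none lower, and none of the 8 was at 0 in every library. The libraries of Kcnj8 had the order of that sum (A, C, B at E16.5 and C, B, A at E18.5). It was also the order of the summed endothelial list, at 113 to 183 and 103 to 202 TPM (1 of 8 genes called higher, 0 lower, none at 0 in every library). Of the 33 genes tested 1 had this order, against 2.39% of all genes tested. It rested on close values, with 24 and 22 reads in pools A and C of E16.5 and 67 and 57 in pools B and C of E18.5. The part of mesenchymal or endothelial RNA in the values of Kcnj8 was not tested. Kcnj11, which encodes the other ATP-sensitive pore, Kir6.2 of the pancreatic beta cell, had 2.13, 1.12 and 0.136 TPM in the E16.5 pools and 0.596, 1.06 and 0.603 in those of E18.5. Pool C of E16.5 was the lowest by far, and the stages overlapped. Its partner gene Abcc8 did not pass (log2 fold change -0.36, limma adjusted p = 0.529). Kcnj13, an epithelial inward rectifier, had between 5.51 and 8.88 TPM in the E16.5 pools and between 5.82 and 10.5 in those of E18.5, without a called difference (limma adjusted p = 0.619). This level is uncertain, since 49.1% of the exon sequence of Kcnj13 is shared with exons of Gigyf2 on the opposite strand. The subunit genes Kcnj15 and Kcnj16 were low, at 0.168 to 0.677 and 0.191 to 0.891 TPM.

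The 2-pore-domain channels carry the background K+ current of many cells. Of their 14 genes 6 were tested and 4 were called, Kcnk5 and Kcnk1 higher and Kcnk6 and Kcnk16 lower, against 31.2% of all genes tested. With median-of-ratios scaling 3 of them stayed called (all but Kcnk1), against 16.9% of all genes, and nothing particular to the class is read from so few genes. Kcnk5 encodes TASK-2, a channel opened by alkaline pH outside the cell and known from bicarbonate-transporting kidney tubules. Kcnk5 (ENSMUSG00000023243.9) lies at chr14:20140057-20181809 on the reverse strand. It had the highest mean of the potassium channel genes at E18.5 (44.6 ± 5.54 TPM against 43.4 ± 7.13 TPM for Kcnt2, SD, n = 3 each, with Kcnt2 above it in pool B), with 45.1, 49.9 and 38.8 TPM in pools A, B and C, after 19.7, 21.2 and 12.1 TPM at E16.5. The stages did not overlap, and the log2 fold change was 1.32 ± 0.22 (SE, limma adjusted p = 0.0120), or 0.87 with median-of-ratios scaling. Without pool A of E18.5 the adjusted p was 0.0518 for Kcnk5 and 0.0546 for Kcnt2, the highest of the alternatives for each, against lowest values of 0.00924 and 0.0102. Kcnk1, which encodes the weakly rectifying channel TWIK-1, had 7.31, 9.12 and 1.12 TPM in the E16.5 pools and 18.4, 21.6 and 19.1 in those of E18.5. Pool C of E16.5 was 8.13-fold below the highest library of its stage, and rested on 20 reads; 8.01% of the exon sequence of Kcnk1 is shared with Gm45875 on the opposite strand. The log2 fold change of 1.88 ± 0.55 (SE, limma adjusted p = 0.0412) was past the threshold in 4 of 13 alternatives and was 1.17 without pool C of E16.5. Kcnk2, the mechanically gated channel TREK-1, was just short of the threshold, with 0.425, 0.856 and 0.203 TPM in the E16.5 pools and 1.72, 1.82 and 1.94 in those of E18.5 (log2 fold change 0.94, limma adjusted p = 0.0514). The limma adjusted p was 0.124 with median-of-ratios scaling and 0.0379 with voom. The E16.5 values rested on 18, 33 and 8 reads, and 12.2% of the exon sequence is shared with A430027H14Rik on the opposite strand.

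Kcnk16 encodes TALK-1, an alkaline-activated channel best known from pancreatic islets, and it lies on the same strand of chromosome 14 as Kcnk5, 79.6 kb away. It spans chr14:20261376-20269199 (ENSMUSG00000023387.8). It changed in the opposite direction from this neighbour. Its values were 22.9, 26.6 and 22.2 TPM in pools A, B and C of E16.5 (mean 23.9 ± 2.35, SD) and 14.3, 8.81 and 8.70 TPM at E18.5. No E18.5 library reached the E16.5 range, and the log2 fold change was -1.13 ± 0.21 (SE, limma adjusted p = 0.0142), with a call in all 13 alternatives. Pancreatic marker genes were detected at uneven levels. The 8 acinar genes summed to 2383, 220 and 66.6 TPM in pools A, B and C of E16.5 and to between 4.11 and 45.4 TPM at E18.5 (3 of 6 tested genes called lower, 0 higher), and the 8 endocrine genes to between 4.62 and 27.3 TPM and between 8.68 and 50.2 TPM (0 of 6 called). No gene of the lists was at 0 in every library. With median-of-ratios scaling the acinar gene Amy2a5 stayed called lower, and Cpa1 and Ctrb1 did not pass (limma adjusted p = 0.0516 and 0.0590). The part of pancreatic RNA in the level of Kcnk16 was not tested. The hepatoblast list fell at the same time, with 7 of 12 genes called lower, 0 called higher and none at 0. With median-of-ratios scaling Apoa1 of this list lost its call (limma adjusted p = 0.0549). The part of hepatoblast RNA in the fall of Kcnk16 was not tested.

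The sequences before the RefSeq start sites (GRCm38.p6) are shown for the pair of neighbours on chromosome 14 and for Kcnt2 and Kcnj5, the members called with the largest rise and the largest fall on the log2(TPM + 1) scale. The rise of Kcnj8 was larger than that of Kcnt2 with a pseudocount of 0.1 (2.48 against 2.08) and with voom (2.12 against 1.63). Each line gives the 250 bases before the start, 5' to 3' on the strand of the gene, with CG dinucleotides in capitals.
Kcnk5 promoter, chr14:20181783-20182032, reverse strand: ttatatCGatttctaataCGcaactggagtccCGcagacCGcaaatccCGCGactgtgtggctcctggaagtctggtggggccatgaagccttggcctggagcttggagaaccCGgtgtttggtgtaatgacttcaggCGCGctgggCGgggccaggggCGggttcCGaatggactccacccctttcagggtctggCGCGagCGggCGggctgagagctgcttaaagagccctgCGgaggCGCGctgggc
Kcnk16 promoter, chr14:20269270-20269519, reverse strand: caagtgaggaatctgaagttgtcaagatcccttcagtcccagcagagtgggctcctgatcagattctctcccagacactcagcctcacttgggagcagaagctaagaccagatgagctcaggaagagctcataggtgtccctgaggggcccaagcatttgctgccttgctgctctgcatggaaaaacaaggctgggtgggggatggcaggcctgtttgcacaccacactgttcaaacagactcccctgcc
Kcnt2 promoter, chr1:140245468-140245717, forward strand: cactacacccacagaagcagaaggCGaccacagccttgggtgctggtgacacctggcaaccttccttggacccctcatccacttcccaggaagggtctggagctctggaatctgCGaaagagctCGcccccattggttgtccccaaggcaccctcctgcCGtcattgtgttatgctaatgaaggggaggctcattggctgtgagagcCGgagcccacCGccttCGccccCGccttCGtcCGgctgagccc
Kcnj5 promoter, chr9:32344345-32344594, reverse strand: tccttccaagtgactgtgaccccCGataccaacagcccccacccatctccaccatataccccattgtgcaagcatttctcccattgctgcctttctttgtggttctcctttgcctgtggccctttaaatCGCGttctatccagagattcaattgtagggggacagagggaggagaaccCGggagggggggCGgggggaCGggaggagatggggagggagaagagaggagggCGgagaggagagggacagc
In the window from 250 bases before to 50 bases after the start, Kcnk5 had 26 CG dinucleotides and its neighbour Kcnk16 had 2, against a median of 7 over the 32851 windows of the RefSeq table. Kcnt2 had 12 and Kcnj5 had 10. Of the 94 potassium channel genes 69 matched the table by symbol, with 94 windows, and their median was 9 CG both above and below a mean of 1 TPM. Kcnk6, which was called lower, had no window in the RefSeq table. The 6 windows of genes called higher had a median of 11 and the 4 of genes called lower one of 15, and their ranges overlapped (1 to 26 and 2 to 37). The 6 letters AGATAA, bound by GATA factors, were searched on both strands and stood in 0 of these 10 windows and in 11.2% of all windows of the table; the HNF1 half-site GTTAAT stood in 0 of 10 and in 7.10%. ACAAAG, the core bound by SOX factors, stood in 2 of the 10, those of Kcna3 and Kcnj5, and in 18.7% of all windows. GGAATG, bound by TEAD factors, stood in 1 of the 6 windows of genes called higher, 0 of the 4 called lower and 14.7% of all windows. CCGGAA, bound by ETS factors, also stood in 1 of the 6 and 0 of the 4, and in 14.9% of all windows.

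Kcnk6, which encodes the weakly rectifying channel TWIK-2, fell as Kcnj5 and Kcna3 did. It lies at chr7:29221926-29232515 on the reverse strand (ENSMUSG00000046410.10). It had 51.3, 24.9 and 63.3 TPM in pools A, B and C of E16.5 and 2.08, 9.66 and 5.93 in those of E18.5. No E18.5 library reached the lowest E16.5 library, with a log2 fold change of -2.86 ± 0.51 (SE, limma adjusted p = 0.0133). The calls of Kcnj5, Kcnk6 and Kcna3 held in all 13 alternatives, and leaving out single libraries moved their log2 fold changes between -4.45 and -2.37. The 3 genes also shared the order of the libraries: C, A, B from high to low at E16.5 and B, C, A at E18.5. The summed megakaryocyte list had this order as well. Its 8 genes were all called lower at E18.5, none was at 0 in every library, and they summed to 5603, 3222 and 9383 TPM in pools A, B and C of E16.5 and to 94.6, 748 and 219 TPM at E18.5. Itga2b, a gene of this list, went from 424 ± 181 to 27.7 ± 20.6 TPM (SD, n = 3 each). Of the 33 potassium channel genes tested, 4 (Kcnj5, Kcnk6, Kcna3 and Kcnab2) had this order of libraries, against 3.25% of all genes tested, in a comparison picked with the values in view. The summed leukocyte list had it too, at 83.7 to 131 TPM at the earlier and 82.9 to 148 TPM at the later stage, with 1 of 7 tested genes called higher (Csf1r), 0 lower and none at 0 in every library. The part of megakaryocyte or platelet RNA in the levels of these genes was not tested.

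**Figure D3:**
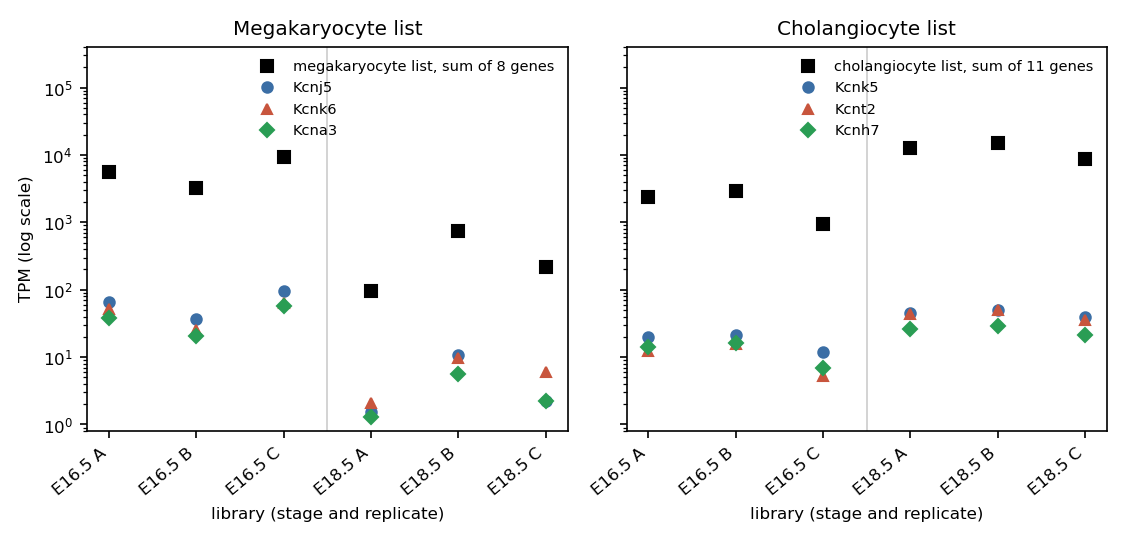
TPM on a log scale (y axis) in each library (x axis) for the sum of a marker list (black squares) and for 3 potassium channel genes. On the left, Kcnj5, Kcnk6 and Kcna3 and the 8 megakaryocyte genes are lowest in E18.5 pool A and highest in E16.5 pool C; on the right, Kcnk5, Kcnt2 and Kcnh7 and the 11 cholangiocyte genes are lowest in E16.5 pool C and highest in E18.5 pool B.

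Biliary markers were also higher at E18.5. Of the 11 cholangiocyte genes 10 were called higher and 0 lower, with a median log2 fold change of 1.68 (1.22 with median-of-ratios scaling, which kept 6 of the 10 calls and lost Krt7, Cldn4, Krt19 and Epcam). Sox9, the gene whose reporter the cells were sorted for, went from 138 ± 60.7 to 411 ± 56.4 TPM (SD, n = 3 each), and Krt19 from 77.8 ± 52.4 to 237 ± 11.9 TPM. The log2 fold changes of Kcnk5 (1.32) and Kcnh7 (1.04) were smaller than this median, and those of Kcnt2 (1.98) and Kcnk1 (1.88) larger. Kcnk5, Kcnt2, Kcnh7, Kcne1l and Kcnc2 had the order B, A, C at both stages, which is also that of the summed cholangiocyte list, but 13.1% of all genes tested had it, against 5 of the 33. The part of a larger biliary share in these rises was not tested. Neural and glial genes, looked at because Kcnh7 and Kcnt2 are best known from neurons, were low apart from S100b. The summed list went from between 19.1 and 55.5 TPM to between 85.2 and 98.1 TPM, with 0 of 5 tested genes called, and Sox10 and Elavl4 had means under 1 TPM. The part of neural RNA in these genes was not tested.

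**Figure D4:**
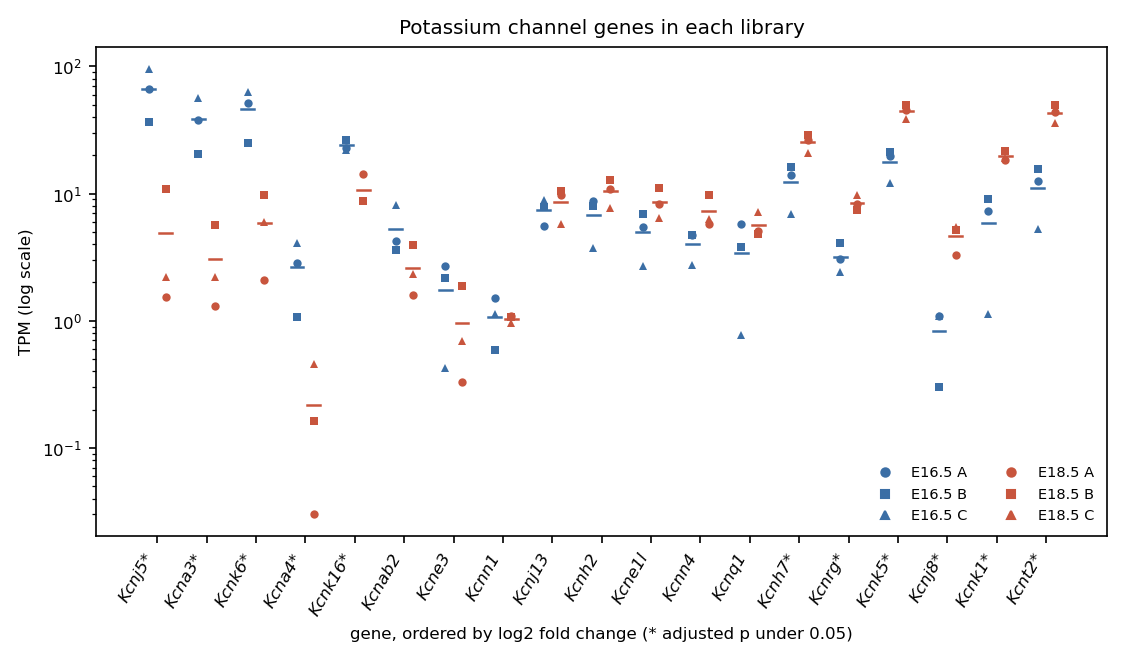
TPM on a log scale (y axis) of the 19 potassium channel genes that were tested and named by the rule, ordered by log2 fold change along the x axis; each symbol is 1 library (blue E16.5, red E18.5, circles A, squares B, triangles C), each bar the mean of 3 libraries, and asterisks mark the 11 genes called. Kcnj5, Kcna3, Kcnk6, Kcna4 and Kcnk16 have all blue symbols above all red ones, and the 6 genes called higher have the reverse.

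Genes that work with potassium channels were described from lists that hold no Kcn gene. Of 15 channel partners, 10 were tested, 3 were called higher and 0 lower, where 26.0% of all genes tested were called higher and 5.22% lower. These shares are also the background of both lists that follow. Besides Abcc9 these were Tmem38a, whose product forms a K+ channel of the endoplasmic reticulum (6.71 ± 2.87 to 16.7 ± 3.25 TPM), and Amigo1, which encodes a subunit that travels with Kv2 channels (9.93 ± 2.60 to 21.3 ± 4.73 TPM; SD, n = 3 each). With median-of-ratios scaling none of the 3 called partners passed. Of 10 genes that share the work of secretion, 5 were called higher and 0 lower, and these 5 passed with median-of-ratios scaling too. Slc4a4, a sodium bicarbonate cotransporter gene, rose from 24.9 ± 5.74 to 54.2 ± 1.97 TPM (SD, n = 3 each), and Slc12a2, the cotransporter that loads cells with chloride, did not pass (20.4 ± 10.4 to 39.2 ± 5.69 TPM, limma adjusted p = 0.0719). Of 10 genes for calcium and cAMP inputs, 6 were called higher and 1 lower, of which Trpv4, Sctr, Itpr1 and the 1 lower gene passed with median-of-ratios scaling. Trpv4, a calcium channel that responds to osmotic swelling, rose from 1.21 ± 0.623 to 10.8 ± 0.759 TPM (SD, n = 3 each; log2 fold change 2.45), and the calcium release channel gene Itpr1 from 33.2 ± 1.72 to 75.2 ± 11.5 TPM. The 1 gene that fell was the purinergic receptor gene P2ry1, from 42.5, 26.9 and 69.2 TPM in pools A, B and C of E16.5 to 4.67, 13.2 and 8.15 TPM at E18.5. Its libraries had the same order as those of Kcnj5.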

How the data were processed

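The deposited table gives TPM per gene and library. In the study's methods, reads went through FastQC (0.11.7), Trimmomatic, HISAT2 (2.1.0, GRCm38) and HTSeq with GENCODE vM15 before the authors derived TPM. All 6 columns were used, and each summed to 1000000. Symbols, coordinates and exon lengths came from GENCODE vM21 on the same build (52403 identifiers matched without their version, 49035 with it, 147 not at all). Dividing TPM times exon length by the worth of 1 read gave whole reads (within 0.01) for 100.0% of the 180057 nonzero values of same-version genes. Libraries of 1 stage differed by a chi-square per degree of freedom of 15.1 or more. Without molecular identifiers, read limits cover counting error only.

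The test was limma 3.58.1 (R 4.3.3; lmFit, then eBayes with trend) on log2(TPM + 1) with Benjamini-Hochberg adjustment, and scipy 1.17.1 gave exact 2-sided permutation tests; the steps were tested on simulated libraries. P-values measure the spread between pools. Alternatives were a pseudocount of 0.1, no filter, a filter at 5 TPM, quantile or median-of-ratios scaling, limma voom on recovered reads with trimmed-mean scaling, the replicate letter as a block, and single libraries left out. Values are given for genes called, genes with a stage mean of 5 TPM or more, 14 preset epithelial channel genes, and genes with 1 library at 1 TPM or more and 5 times the next. Kcna2, Kcnc2, Kcnd1, Kcng3, Kcnip2, Kcnk2, Kcnmb1 and Kcnt1 were named outside this rule after their values were seen. The members and all gene lists were chosen with earlier results of these data known. Whether counting used strand is not given in the sources used here. Some genes of the family and the lists are not reported here by name, though counts and sums include them.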

Additional observations from a re-analysis of the deposited data

How the results depend on the processing

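The number of potassium channel genes called higher at E18.5 (6) was 3 with median-of-ratios scaling and 3 with quantile normalization, and ranged from 1 to 6 when single libraries were left out, with the lowest count without pool A of E18.5 and 3 without pool B of E18.5. The number called lower (5) was 8 with limma voom on recovered reads, the 3 added being Kcng3, Kcnip2 and Kcnmb1, and was 4 or 5 in all other alternatives. Of all genes, 7000 were called, against 4282 without a filter (43310 genes tested), 3795 with median-of-ratios scaling, 3796 with quantile normalization, 4159 with limma voom, and 1148 (without pool A of E18.5) to 5432 with single libraries left out, with 2499 without pool B of E18.5, 4066 without pool C of E16.5 and 4235 without pool A of E16.5; rises made up 83.3% of the calls, but 38.1%, 50.5% and 42.9% under the scalings and voom. The cause of these shifts was not tested. The fits with single libraries left out had fewer libraries, and the fit without a filter had more genes. Kcnj13 reversed from 0.18 to -0.23, -0.25 and -0.17 under median-of-ratios, quantile and voom scaling, and Kcnn1 from 0.00 to -0.23, -0.33 and -0.39, with a range of -0.18 to 0.15 without single libraries; none of these passed the threshold. Whether the replicate letters pair the samples cannot be decided with so few pools. The deviations of same-lettered libraries correlated at -0.042, 0.081 and 0.14 over genes, and those of differently lettered libraries at -0.15 to 0.084. With the letter as a replicate block 7314 genes were called. The counts of potassium channel genes were 6 and 5, the same as without it. Of the other potassium channel genes that the naming rule gave and that were tested, none changed direction, and Kcnd1, named outside it, went from 0.02 to -0.26 with median-of-ratios scaling. Depth limits the 61 genes under 1 TPM, which were not tested across stages with limma except in the fit without a filter.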

Other observations

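Besides the protein-coding genes, 5 antisense transcripts bear Kcn symbols. Kcnq1ot1, a long RNA of the imprinted Kcnq1 region that runs opposite to Kcnq1 on chromosome 7, was the only one with a mean of at least 1 TPM. It had 44.0, 36.8 and 32.7 TPM in pools A, B and C of E16.5 and 50.7, 51.1 and 45.8 in those of E18.5, several times the level of Kcnq1. Its libraries did not overlap between the stages, but the log2 fold change of 0.38 (standard error 0.14) did not pass (limma adjusted p = 0.0761) and was -0.08 with median-of-ratios scaling. Kcnmb4os1 was listed at 0 in all 6 libraries, and Kcnmb4os2, Kcnd3os and Kcnab3os reached at most 1.46, 0.434 and 0.227 TPM.

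Kcna2 lies 63.1 kb from Kcna3 on the same strand of chromosome 3 and did not reach 1 TPM in any library, where Kcna3 had 20.4 to 56.8 TPM at E16.5.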
